A study of Mus musculus with 10 samples.

Results

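The BCL2 family genes described here are 10 genes that set whether a cell keeps its mitochondria intact or dies by apoptosis. They were chosen by name, and all 10 were found among 78298 genes in the deposited table by matching identifiers to the GENCODE annotation of GRCm39. All 10 passed the filter on low counts that left 16700 genes for testing. The data are bulk RNA sequencing counts from hearts of female mice on a C57BL/6J background. Of the 10 libraries, 5 carry the genotype label of the wild type and 5 that of a p38δ knockout, which the design describes as germline. Every mouse had received 1 intraperitoneal injection of doxorubicin at 30 mg/kg and was sampled 72 h later. The 2 groups therefore share the drug, its effect was not measured, and the comparison asks whether these transcripts differ with p38δ genotype after doxorubicin. Ages are not given in the labels, and neither is the part of Mapk13, the gene of p38δ, that the germline deletion removes.

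The family has 3 roles. Pro-survival members (Bcl2, Bcl2l1, Bcl2l2 and Mcl1) sit on the mitochondrial outer membrane and hold the killers in check. The effectors Bax and Bak1 form pores in that membrane and release cytochrome c, which starts the caspases. BH3-only members (Bid, Bbc3, Pmaip1 and Bcl2l11) sense damage and either block the guardians or activate the effectors. In the heart, doxorubicin damages DNA and mitochondria, and p53, which DNA damage activates, is known to induce Bax, Bbc3 and Pmaip1.

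All of these proteins meet through the BH3 segment, a short helix that fits a groove on the pro-survival members. The coding DNA of that segment is shown because it is the element that unites members with opposite roles. It was read 5′ to 3′ from the canonical GENCODE transcripts of 9 members on GRCm39. Capitals mark the 6 codons of the core, which read leucine or methionine, 3 residues of any kind, glycine or alanine, then aspartate. Lower case marks 3 codons on each side.
Bcl2, pro-survival, chr1:106640305-106640340, minus strand: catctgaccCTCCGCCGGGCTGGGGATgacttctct
Bcl2l1, pro-survival, chr2:152671617-152671652, minus strand: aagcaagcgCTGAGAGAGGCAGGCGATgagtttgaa
Bcl2l2, pro-survival, chr14:55121965-55122000, plus strand: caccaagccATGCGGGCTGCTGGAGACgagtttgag
Mcl1, pro-survival, chr3:95566738-95566773, plus strand: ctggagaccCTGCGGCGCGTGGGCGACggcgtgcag
Bax, effector, chr7:45115421-45115456, minus strand: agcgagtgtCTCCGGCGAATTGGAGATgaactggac
Bak1, effector, chr17:27241505-27241540, minus strand: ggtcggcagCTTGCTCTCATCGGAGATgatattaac
Bid, BH3-only, chr6:120874250-120874285, minus strand: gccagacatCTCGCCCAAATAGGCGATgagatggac
Bbc3, BH3-only, chr7:16047689-16047724, plus strand: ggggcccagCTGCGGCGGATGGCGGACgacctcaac
Bcl2l11, BH3-only, chr2:127989061-127989096, plus strand: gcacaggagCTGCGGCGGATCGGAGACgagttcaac

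Each of the 9 coding sequences held this core exactly 1 time. The pattern is loose: 27.9% of 21464 canonical mouse coding sequences hold it. Among these segments the closest 2 were those of Bbc3 and Bcl2l11, with 25 of 36 bases equal, and next came the pro-survival genes Bcl2l1 and Bcl2l2 with 24 of 36. The counts are per gene, so they do not tell apart the splice forms of Bcl2l1, Bcl2l11 or Mcl1, some of which are known to differ in function.

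Several features of the libraries bear on the members. Totals ran from 21403189 to 40627138 counts. Markers of ventricular muscle such as Myh6 and Myl2 summed to 20720 to 61050 CPM (counts per 1000000 after scaling), so all 10 libraries carried the labelled tissue. Wild-type library 1 stood apart. All 9 airway and lung markers, such as Scgb1a1 and Sftpc, had reads in it, with a sum of 895 CPM, against 0.486 to 77.7 in the other wild-type and 0.524 to 7.01 in the knockout libraries. Its macrophage and monocyte markers summed to 649 CPM against 149 to 229 in the other 9 libraries. Atrial markers summed to 1408 CPM in it against 34.9 to 316 in the other 9, skeletal muscle markers to 675 against 4.48 to 30.9, fibroblast markers to 1634 against 719.7 to 983, and fat markers to 1064 against 368 to 807. It also held 292 Mapk13 counts, whereas wild-type libraries 2 to 5 held 1 to 5 and the knockout libraries 9 to 15, so the targeted gene did not check the labels. Sample titles differ in form between the groups, and a cohort behind them cannot be told apart from genotype. In bulk tissue, fewer cells of a type and less RNA per cell cannot be told apart either. The labels do not say that each library is a separate animal, so p-values measure only the spread between these samples, which may be technical.

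Transcript levels of the family were led by its pro-survival members. On the scale of CPM per kilobase of exon, averaged over 10 libraries, Mcl1 stood first at 56.3 ± 8.57 (SD, n = 10), higher than 98.2% of tested genes. Mcl1 encodes a short-lived guardian that heart muscle is known to need. Bcl2l1, which encodes BCL-XL, followed at 9.88 ± 2.29 and Bcl2l2, which encodes BCL-W, at 7.71 ± 0.358. Bcl2 itself, the founding member, was low at 0.901 ± 0.17, above only 37.4% of tested genes. The effectors lay between these, with Bax at 4.47 ± 0.898 and Bak1 at 3.16 ± 0.621 CPM per kilobase.

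The BH3-only genes were mostly low. Bcl2l11, which encodes BIM, stood at 2.79 ± 0.317 CPM per kilobase, close to the effectors. Pmaip1, which encodes NOXA, stood at 0.333 ± 0.281, Bbc3, which encodes PUMA, at 0.263 ± 0.0376, and Bid at 0.126 ± 0.0588. Neighbours in the order were mostly apart in every library, but 3 pairs were not. Bcl2l1 exceeded Bcl2l2 in 9 of 10 libraries, Bak1 exceeded Bcl2l11 in 7 of 10, and Pmaip1 exceeded Bbc3 in 5 of 10. With the longest transcript as gene length, the last 2 pairs changed places: Bcl2l11 stood at 5.51 against 3.18 for Bak1, and Bbc3 at 0.47 against 0.333 for Pmaip1.

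**Figure D1:**
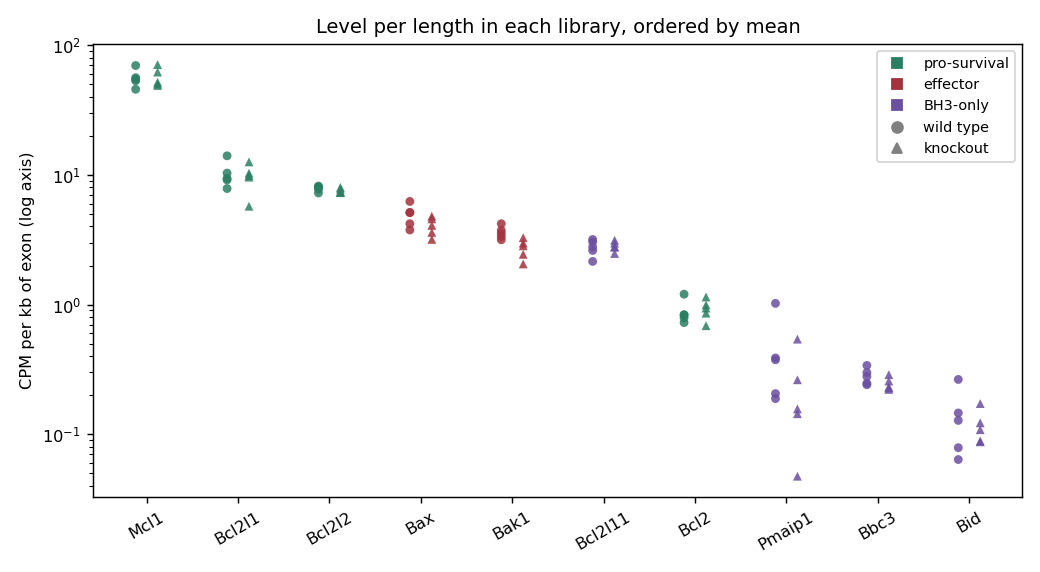
Level of each gene in CPM per kilobase of exon (log axis) in the 5 wild-type (circles) and 5 knockout (triangles) libraries, coloured by role and ordered by mean. Mcl1 lies above every other gene in all 10 libraries, and Pmaip1 has the widest scatter.

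As a share of the summed level of the 10 genes, pro-survival transcripts made up 85.8 ± 3.04% in wild-type and 87.9 ± 1.98% in knockout hearts (SD, n = 5 each). The effectors made up 9.97 ± 2.46% and 8.03 ± 1.36%, and the BH3-only genes 4.21 ± 0.63% and 4.06 ± 0.73%. The ranges overlapped for all 3 roles. The effector share was 7.16 to 13.7% in wild-type and 5.98 to 9.31% in knockout libraries, and its highest value was in wild-type library 1. These shares follow mainly Mcl1, which holds most of the sum, and they were not tested. With the longest transcript as gene length, pro-survival shares were 81.2% and 83.4% and BH3-only shares 6.74% and 6.73%. The ratio of Bax to Bcl2 per kilobase, often used as a rough index of the balance, was 5.61 ± 0.617 in wild-type and 4.61 ± 1.61 in knockout hearts. It ran from 4.75 to 6.19 and from 2.78 to 6.98, so the knockout libraries spread on both sides of the wild-type ones.

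No member passed the test between genotypes. With edgeR's quasi-likelihood test and Benjamini-Hochberg adjustment over all 16700 genes, 0 of 10 members had an adjusted p under 0.05, where the background was 0.353% of tested genes. DESeq2 also called 0 of 10, against 0.718% of the genes it tested. At an unadjusted p under 0.05 by edgeR 1 member passed, Bak1, and the background at that threshold was 6.86%. In no member did the groups separate fully. Over all tested genes all 5 knockout libraries lay above all 5 wild-type ones in 0.88%, and below them in 0.898%. Log2 fold changes (knockout minus wild type) were above 0 in 3 members and below 0 in 7, with a median of -0.14, beside -0.01 over all tested genes.

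**Figure D2:**
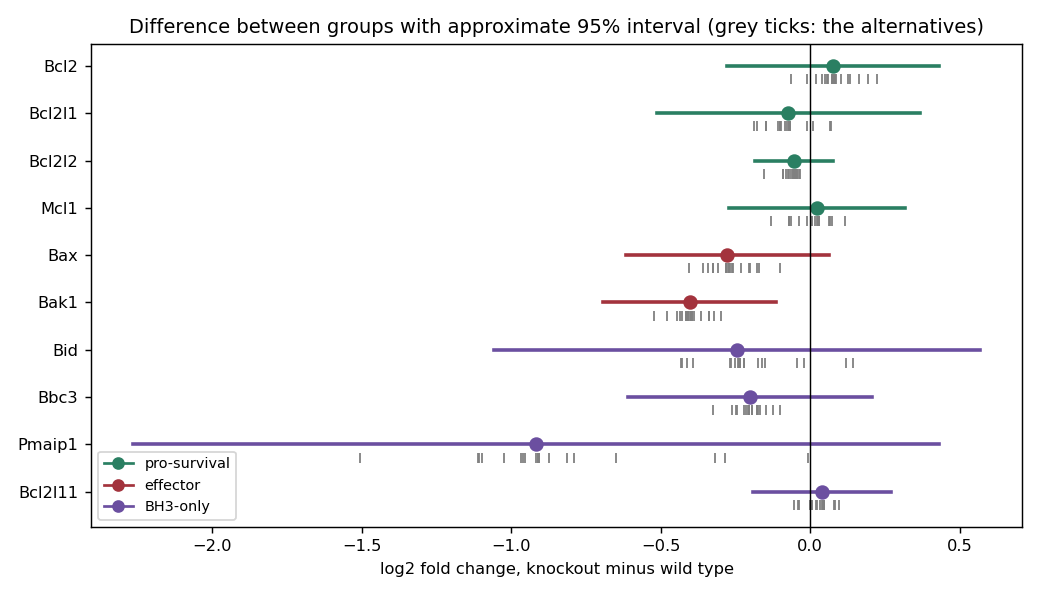
Log2 fold change of each gene, knockout minus wild type, as a point with its approximate 95% interval, coloured by role; grey ticks below each give the 21 alternative fits (20 for Pmaip1). The interval of Bak1 alone lies wholly below 0, and the widest is that of Pmaip1.

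Bak1 (ENSMUSG00000057789, chromosome 17, 27238784 to 27247983, GRCm39) encodes BAK, the effector that resides on the mitochondrial membrane before any death signal. In wild-type libraries 1 to 5 it stood at 10.1, 8.05, 8.98, 7.60 and 8.52 CPM. In knockout libraries 1 to 5 it stood at 7.16, 7.89, 4.95, 5.87 and 6.83 CPM. Of the 5 knockout values, 4 lay below every wild-type value, and the exception, library 2, exceeded only wild-type library 4. Group means were 8.65 ± 0.961 and 6.54 ± 1.15 CPM (SD, n = 5 each). The log2 fold change was -0.40 ± 0.13 (SE), a ratio of 0.756 with an approximate 95% interval of 0.618 to 0.925. The unadjusted p was 0.0106 and the adjusted p 0.616 by edgeR, so the difference did not pass over all genes. DESeq2 gave an adjusted p of 0.274. The direction was the same in all 21 alternative fits, with log2 fold changes from -0.52 to -0.30. Without wild-type library 1 the value was -0.34, and without that library and knockout library 4 it was -0.30.

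Mesothelial and epicardial markers were lower in the knockout libraries too. All 8 of these markers had log2 fold changes below 0, none passed the adjusted test by edgeR and 7 had an unadjusted p under 0.05, where the background was 6.86%. All 8 had reads in every library, and their sum was 35.97 to 139 CPM in wild-type and 18.4 to 37.4 CPM in knockout libraries. The wild-type top was library 1, and the other 4 lay between 35.97 and 49.4 CPM. Log2 fold changes were also below 0 for all 8 macrophage markers, all 4 tested atrial markers, all 4 tested skeletal muscle markers and 6 of 7 fibroblast markers. Each of these lists had its highest sum in wild-type library 1. In wild-type libraries 2 to 5 skeletal muscle sums were 4.48 to 9.72 CPM, against 4.73 to 30.9 CPM in the knockout libraries. Macrophage sums there were 149 to 229 against 160 to 199 CPM, and atrial sums 34.9 to 316 against 41.7 to 129 CPM. Fibroblast sums were 806 to 983 against 719.7 to 852 CPM. Other lists went the other way: all 9 ventricular, 5 of 7 endothelial and 4 of 6 smooth muscle and pericyte markers were above 0. The part of any of these markers in the Bak1 difference was not tested. Without wild-type library 1 the Bak1 value is the -0.34 given above. Exons of Bak1 also overlap those of Ggnbp1 on the opposite strand over 18.2% of their length, and those of Gm50253 over 7.35%. The strand setting of the counting is not given in the sources used here, so reads there are uncertain. Neither neighbour passed the test, and both had log2 fold changes above 0: Ggnbp1 stood at 13.6 ± 2.55 against 14.8 ± 2.21 CPM and Gm50253 at 13.1 ± 1.07 against 13.6 ± 1.62 CPM.

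Bak1 is the member that lies on the chromosome of the targeted gene, 1739764 bases from Mapk13. Within 20 Mb of Bak1, 37 of 545 tested genes were called, 22 higher and 15 lower, which is 6.79%, against 0.353% over all genes. Within 1 Mb, 4 of 48 were called, or 8.33%. These were Decr2, a peroxisomal fatty acid enzyme (log2 fold change -0.97), Neurl1b, a ubiquitin ligase of the Notch pathway (-0.83), the chromatin gene Hmga1 (-1.04) and the noncoding 9630028I04Rik (1.90). Hmga1 is uncertain because it shares sequence with copies elsewhere, and Neurl1b lies close to the threshold with an adjusted p of 0.0405 by edgeR. Next to Bak1, Itpr3, which encodes a calcium release channel of the endoplasmic reticulum, stood at 12.9 ± 1.36 against 10.2 ± 1.02 CPM. All 5 knockout values of Itpr3 lay below all 5 wild-type ones, as in 0.898% of all tested genes. Its adjusted p was 0.534 by edgeR, and Itpr3 was singled out after its values were seen. Within 1 Mb of Bak1 the groups also separated fully for the 4 called genes. They did so as well for Ilrun (log2 fold change 0.29) and Bltp3a (0.37), which were higher in the knockout libraries and not called. An effect of the deleted gene on Bak1 and a difference of the flanking chromosome between the groups cannot be told apart in this design.

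**Figure D3:**
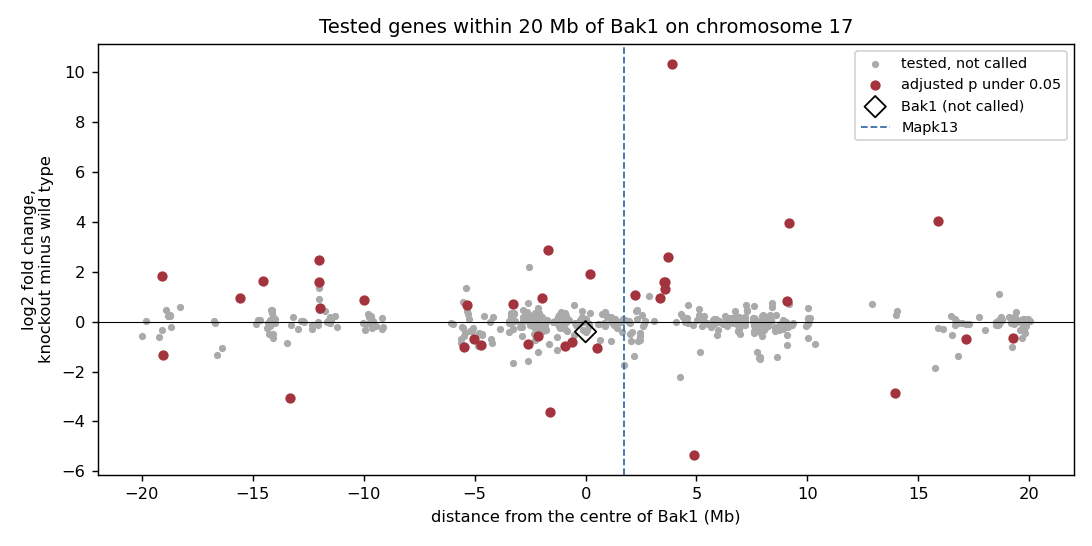
Log2 fold change (knockout minus wild type) of the 545 tested genes within 20 Mb of Bak1 against distance from its centre in Mb; red points had an adjusted p under 0.05, the diamond is Bak1 and the dashed line Mapk13. The 37 called genes lie on both sides of Bak1 and in both directions, and Bak1 is close to the mass of genes that did not pass.

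Bax (ENSMUSG00000003873, chromosome 7, 45111015 to 45116325) encodes the effector that moves from the cytosol to mitochondria when activated. It stood at 11.6, 9.54, 9.48, 7.79 and 6.97 CPM in wild-type libraries 1 to 5, and at 8.50, 7.57, 8.90, 5.90 and 6.68 CPM in knockout libraries 1 to 5. The 2 lowest values were in knockout libraries, 4 and 5, and the 3 highest were in wild-type ones, while the others mixed. The log2 fold change was -0.28 ± 0.16 (SE; edgeR adjusted p = 0.748), a ratio of 0.825 with an interval of 0.652 to 1.04. Without wild-type library 1 it was -0.17, and without knockout library 4 as well -0.10. Bax shares 10.3% of its exon length with Gm45808, an annotation on the same strand, so reads there can be divided between them.

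**Figure D4:**
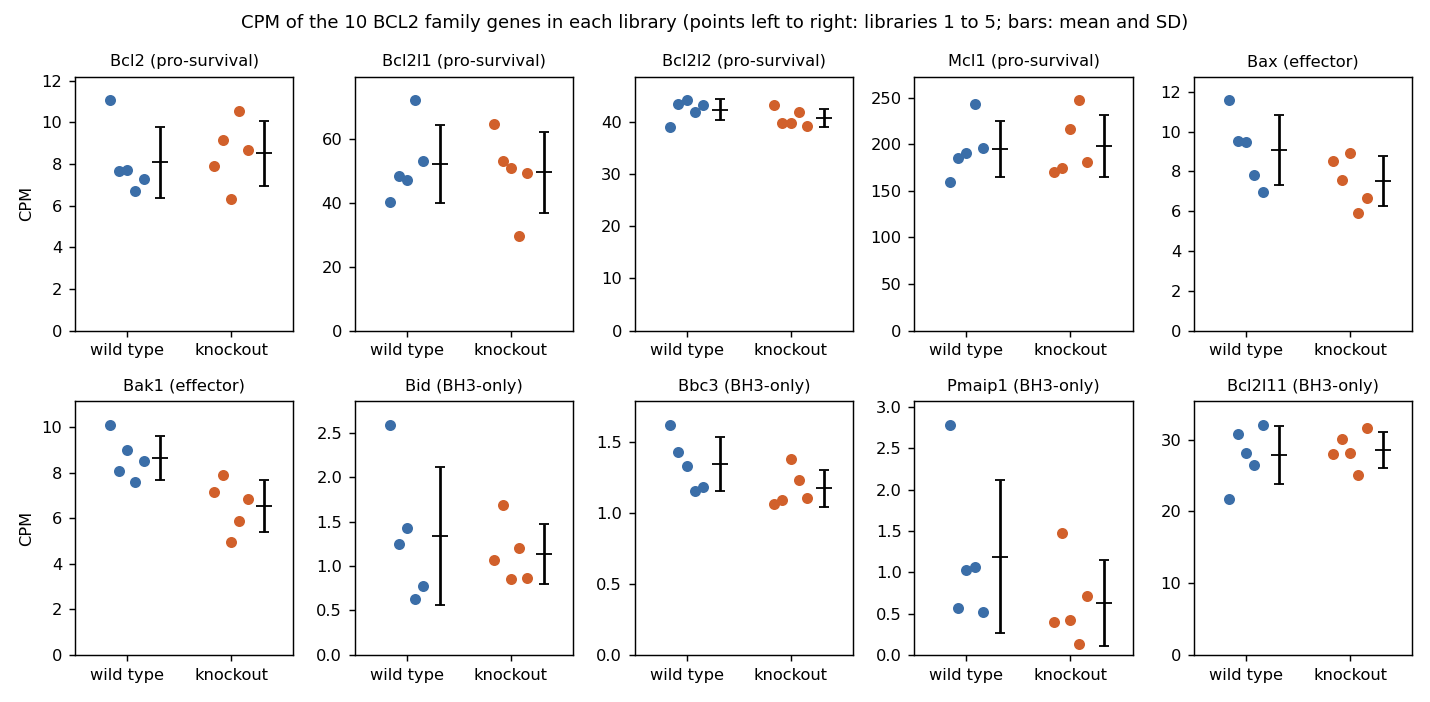
CPM of each of the 10 genes in the 5 wild-type (blue) and 5 knockout (orange) libraries, points left to right for libraries 1 to 5, with mean and SD as bars; every axis starts at 0. The groups overlap for all 10 genes, least for Bak1, and wild-type library 1 is the highest point for 6 of them.

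Among the pro-survival genes the data bound the differences most tightly for Bcl2l2 (ENSMUSG00000089682, chromosome 14, 55120778 to 55126551). It stood at 39.1, 43.6, 44.3, 41.9 and 43.2 CPM in the wild-type and 43.2, 39.9, 39.8, 41.9 and 39.4 CPM in the knockout libraries. It varied by 4.65% (SD over mean, n = 10), the least of the members. The ratio of knockout to wild type was 0.963 with an interval of 0.88 to 1.05 (edgeR adjusted p = 0.863). Bcl2l2 shares 10.998% of its exon length with Gm20521, an annotation on the same strand, so reads there can be divided between them. Mcl1 (ENSMUSG00000038612, chromosome 3, 95566026 to 95570487) stood at 160, 185, 191, 243 and 196 CPM in the wild-type and 171, 175, 216, 247 and 181 CPM in the knockout libraries. Its ratio was 1.02 (interval 0.828 to 1.25, edgeR adjusted p = 0.982), and the groups covered almost the same range.

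Bcl2l1 (ENSMUSG00000007659, chromosome 2, 152622582 to 152673655) varied more between libraries than between groups. It stood at 40.3, 48.2, 46.9, 72.0 and 53.0 CPM in the wild-type and 64.6, 52.9, 50.8, 29.4 and 49.3 CPM in the knockout libraries. The lowest value was in knockout library 4 and the highest in wild-type library 4. The ratio of group levels was 0.95 (interval 0.70 to 1.29, edgeR adjusted p = 0.955), and the sign turned to a log2 fold change of 0.07 both without knockout library 4 and without wild-type library 4. Bcl2 (ENSMUSG00000057329, chromosome 1, 106465908 to 106642060) stood at 11.1, 7.64, 7.71, 6.69 and 7.28 CPM in the wild-type and 7.91, 9.15, 6.33, 10.5 and 8.65 CPM in the knockout libraries. Of the 5 knockout values of Bcl2, 4 lay above the wild-type median, and the highest value of all was in wild-type library 1. Its ratio was 1.05 (interval 0.825 to 1.35, edgeR adjusted p = 0.94), and without wild-type library 1 the log2 fold change went from 0.08 to 0.22 (edgeR adjusted p = 0.884). Without knockout library 4 it was -0.01.

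The sensor Bcl2l11 (ENSMUSG00000027381, chromosome 2, 127967958 to 128004476), whose protein BIM binds every pro-survival member, stood at 21.7, 30.8, 28.1, 26.4 and 32.1 CPM in the wild-type libraries. In the knockout libraries it stood at 28.01, 30.1, 28.2, 25.04 and 31.7 CPM. Its ratio was 1.03 (interval 0.875 to 1.21, edgeR adjusted p = 0.955), and all 5 knockout values lay within the wild-type range. Bbc3 (ENSMUSG00000002083, chromosome 7, 16042318 to 16052130), whose protein PUMA is a main link from p53 to mitochondria, stood at 1.63, 1.43, 1.34, 1.15 and 1.18 CPM in the wild-type libraries. In the knockout libraries it stood at 1.06, 1.09, 1.38, 1.23 and 1.11 CPM, and 3 of these lay below every wild-type value. The log2 fold change of Bbc3 was -0.20 ± 0.19 (SE; edgeR adjusted p = 0.844), from 24 to 74 counts a library.

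Bid (ENSMUSG00000004446, chromosome 6, 120862525 to 120894171), which links death receptors to mitochondria once caspase-8 cuts it, stood at 2.59, 1.25, 1.43, 0.625 and 0.772 CPM in the wild-type libraries. In the knockout libraries it stood at 1.06, 1.69, 0.857, 1.20 and 0.868 CPM. Both the highest and the lowest value were in wild-type libraries, and the ratio was 0.844 with a wide interval of 0.48 to 1.48 (edgeR adjusted p = 0.911). The sign turned without wild-type library 1, to a log2 fold change of 0.14. Exons of Bid overlap those of Bcl2l13 on the opposite strand over 31.2% of their length, and with 13 to 118 Bid counts a library its values are uncertain.

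Pmaip1 (ENSMUSG00000024521, chromosome 18, 66591604 to 66598636), whose protein NOXA neutralises MCL1, was the most variable member. It stood at 2.79, 0.562, 1.03, 1.06 and 0.515 CPM in the wild-type and 0.393, 1.48, 0.428, 0.13 and 0.719 CPM in the knockout libraries. The value of knockout library 4 rested on 4 counts, with a 95% exact Poisson interval of 0.0354 to 0.332 CPM that covers counting error only. The log2 fold change was -0.92 ± 0.61 (SE; edgeR adjusted p = 0.769), and it depended on single libraries. Without wild-type library 1 it was -0.28, and without that library and knockout library 4 it was -0.01. The 2 libraries highest in Pmaip1, wild-type library 1 and knockout library 2, also had the highest sums of lymphocyte and thymus markers. The sums were 10.2 and 15.9 CPM, against 0.381 to 2.11 CPM in the other 8. All 10 markers had reads in both, but also in wild-type library 3 and in knockout library 4, the lowest in Pmaip1. The markers behind the 2 sums differed. Ms4a1 stood at 4.11 CPM in wild-type library 1 and 0.246 in knockout library 2, and Rag1 at 0.022 and 2.89. The part of these markers in the Pmaip1 values was not tested. An alternative chosen after seeing the data left out the 2 libraries highest in Pmaip1. Its log2 fold change was -0.87 (edgeR adjusted p = 0.998). Without knockout library 2 alone it was -1.51.

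Across the members, 2 libraries held most of the extremes. Wild-type library 1 was the highest for 6 members (Bcl2, Bax, Bak1, Bid, Bbc3 and Pmaip1) and the lowest for 3 (Bcl2l2, Mcl1 and Bcl2l11). Knockout library 4 was the highest for Mcl1 and the lowest for Bcl2l1, Bax and Pmaip1. In that library the level of Bcl2l1 per kilobase was 0.0809 of that of Mcl1, against 0.16 to 0.257 in the other 9. Other genes stood apart there too, all chosen after their values were seen. Bnip3, a hypoxia-induced mitophagy receptor with a BH3-like segment, stood at 222 CPM against 386 to 735 in the other 9 libraries. The p53 target Cdkn1a stood at 13.7 CPM against 65.9 to 105, the p53-induced Trp53inp1 at 28.9 against 56.3 to 90.1, and the survival kinase gene Akt1 at 156 against 76.6 to 104. Ventricular muscle markers also had their highest sum in knockout library 4, 61050 CPM against 20720 to 46960 in the other 9 libraries. The part of these markers in the values of that library was not tested. With wild-type library 1 and knockout library 4 both left out, 0 of 10 members passed.

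**Figure D5:**
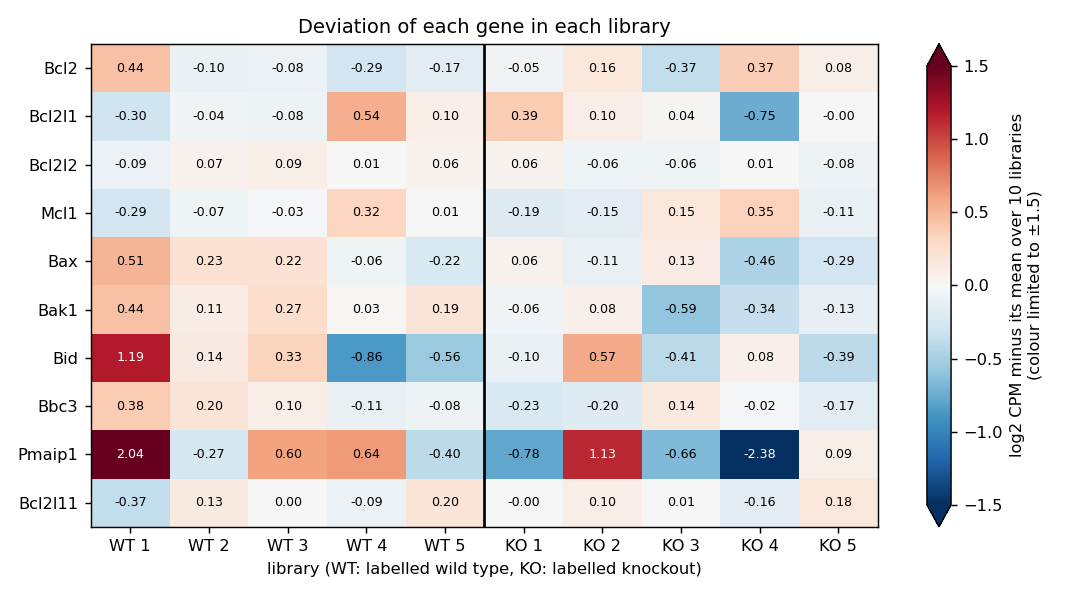
Log2 CPM of each gene in each library minus its mean over the 10 libraries, printed in each cell; red is above and blue below the mean, with colour limited at 1.5 either way. Wild-type library 1 and knockout library 4 hold the strongest colours, both in the row of Pmaip1 (2.04 and -2.38).

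The wider apoptosis machinery was read from 7 lists of 107 genes, of which 97 were tested. By edgeR 0 passed, where the background was 0.353% of tested genes. An unadjusted p under 0.05 was reached by 9 of the 97, where the background was 6.86%. DESeq2 called 1, Pim1, against 0.718% of the genes it tested. Among other BCL2 relatives, 10 of 15 were tested, 5 above and 5 below 0, with a median log2 fold change of 0.02. The BH3-only gene Bmf stood at 9.11 ± 1.79 against 6.49 ± 1.35 CPM (edgeR adjusted p = 0.642). Bcl2l13, a mitochondrial relative that acts in mitophagy, stood at 92.6 ± 11.8 against 109 ± 9.67 CPM (adjusted p = 0.711), and Bnip3l, a mitophagy receptor gene, at 71.0 ± 3.39 against 64.1 ± 6.21 CPM.

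Downstream of the pores, 18 of 19 genes of the apoptosome, caspases and their inhibitors were tested, with 9 above and 9 below 0, a median of 0.00 and none at an unadjusted p under 0.05. The mitochondrial protease gene Htra2 stood at 12.2 ± 1.305 against 10.9 ± 0.981 CPM, the executioner caspase gene Casp6 at 6.36 ± 0.631 against 5.64 ± 0.728 and Septin4 at 14.5 ± 1.02 against 15.6 ± 1.94. All 15 partners at the outer membrane were tested, 11 above and 4 below 0 with a median of 0.08. Bcap31, an endoplasmic reticulum protein gene cut in apoptosis, stood at 37.1 ± 4.2 against 33.0 ± 3.77 CPM, the fission gene Dnm1l at 104 ± 8.10 against 115 ± 17.7 and Mtch2, the mitochondrial receptor for cut BID, at 76.1 ± 6.87 against 82.3 ± 9.32.

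Of 13 genes that control the stability or activity of these proteins, 8 were above and 5 below 0, with a median of 0.05. Pim1 (chromosome 17, 29709581 to 29715086), a survival kinase that phosphorylates BAD, stood at 17.7, 16.1, 15.9, 18.5 and 16.6 CPM in the wild-type and 10.6, 12.7, 11.5, 15.2 and 12.2 CPM in the knockout libraries. All 5 knockout values lay below all 5 wild-type ones, as in 0.898% of all tested genes. The log2 fold change was -0.45 ± 0.10 (SE). The adjusted p was 0.17 by edgeR and 0.0126 by DESeq2, so the call depends on the tool, and edgeR called it without knockout library 4 (adjusted p = 0.0203). Pim1 is one of the 545 tested genes within 20 Mb of Bak1, of which 6.79% were called. Trim17, a ubiquitin ligase gene for MCL1 turnover, stood at 0.634 ± 0.204 against 0.299 ± 0.192 CPM (edgeR adjusted p = 0.688). Huwe1, another such ligase, stood at 252 ± 21.9 against 296 ± 24.9 CPM (adjusted p = 0.699).

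Of the genes that regulate transcription of the members, 14 of 16 were tested, 6 above and 8 below 0 with a median of -0.02. Gata4, a heart transcription factor gene that favours Bcl2l1 expression, stood at 55.8 ± 9.74 against 65.0 ± 9.81 CPM. Ddit3, an endoplasmic reticulum stress factor gene, stood at 8.82 ± 1.35 against 9.72 ± 1.49 CPM, and the p53 cofactor gene Ppp1r13b at 24.7 ± 1.04 against 23.6 ± 1.11. In the death receptor pathway 11 of 13 were tested, 3 above and 8 below 0 with a median of -0.09. Ripk1 stood at 12.1 ± 2.26 against 9.67 ± 1.78 CPM, the ligand gene Tnfsf10 at 16.8 ± 1.08 against 19.1 ± 4.14 and the receptor gene Tnfrsf1a at 34.2 ± 9.59 against 29.4 ± 4.65. None of these 6 passed.

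A list of 16 other targets of p53 was also read, which is not a full set of such targets. All 16 were tested, with 3 above and 13 below 0 and a median of -0.23, beside -0.01 over all genes. Of these 4 had an unadjusted p under 0.05, where the background was 6.86% of tested genes, and 0 passed by edgeR. Sesn2 stood at 5.36 ± 1.39 against 3.96 ± 0.477 CPM, Zmat3 at 14.3 ± 2.68 against 11.5 ± 1.14 and Phlda3, which encodes an AKT inhibitor, at 9.44 ± 4.88 against 6.12 ± 1.13. The fourth, Rrm2b, which encodes a ribonucleotide reductase subunit, was above 0 at 49.4 ± 1.99 against 54.9 ± 4.49 CPM and is named after its values were seen. Without wild-type library 1 the log2 fold changes were -0.30 for Sesn2, -0.19 for Zmat3 and -0.26 for Phlda3, from -0.45, -0.31 and -0.63, and none of the 3 kept an unadjusted p under 0.05 by edgeR. Among the family, Bax, Bbc3 and Pmaip1, which p53 is known to induce, were also below 0. So were other members, 7 of the 10 in all. Bax, Bbc3, Pmaip1, Sesn2, Zmat3 and Phlda3 were all at their highest in wild-type library 1, where Phlda3 reached 18.01 CPM against 6.45 to 8.67 in the other wild-type libraries. The gene of p53 itself and that of its inhibitor had group means closer together: Trp53 stood at 8.76 ± 1.87 against 8.36 ± 1.35 CPM and Mdm2 at 57.6 ± 6.18 against 57.6 ± 3.71.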

How the data were processed

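RNA of hearts was sequenced in 5 wild-type and 5 knockout libraries, and groups were taken from the genotype label. Per the labels' protocols, STAR 2.5.2 placed the reads on GRCm39. The authors deposited expected counts per gene, with RSEM 1.3.0 named in the submitters' processing notes. All values were already whole. Which annotation release and strand setting were used is not given here in any source. RSEM splits reads of similar or overlapping genes by an estimate, so such genes are uncertain.

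Genes were tested with edgeR 4.0.16 (R 4.3.3; TMM factors, default filter with a minimum count of 10, robust quasi-likelihood F test), with Benjamini-Hochberg adjustment over 16700 genes at 0.05. CPM used TMM-scaled totals of tested genes, and lengths were the union of GENCODE exons. Standard errors are approximate: the absolute log2 fold change over the square root of F. Alternatives used DESeq2 1.42.0, voom in limma 3.58.1, other scalings and filters, and libraries left out. Libraries of a group differed beyond sampling noise in all 20 pairs (chi-square per degree of freedom 9.2 to 163). Fits were tested on simulated data. Depth limits the precision of genes with few counts.

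Members and lists were chosen with earlier results of these data known. All members were named, with up to 3 genes of each list by p and the called genes within 1 Mb of Bak1. Mdm2, Trp53, Itpr3, Ilrun, Bltp3a, Bnip3, Cdkn1a, Trp53inp1, Akt1, Rrm2b, Ggnbp1, Gm50253 and the markers Ms4a1 and Rag1 were added after their values were seen.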

Additional observations from a re-analysis of the deposited data

Results flagged for a closer look

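Of 74 group values checked for a sample far from the other 4 of its group, 8 stood out, where chance flags about 1 in 20. Wild-type library 1 accounted for 7. Bcl2 there was 11.1 CPM against 6.69 to 7.71 in the other wild-type libraries, and Pmaip1 2.79 against 0.515 to 1.06. Ripk1 was 16.04 CPM against 10.5 to 11.5, and Phlda3 18.01 against 6.45 to 8.67. Htra2 was low at 9.91 CPM against 12.5 to 13.1, as were Bcl2l13 at 72.0 against 93.6 to 100 and Ppp1r13b at 22.9 against 24.8 to 25.6. This library also held the highest sums of airway, macrophage, atrial, skeletal muscle, fibroblast, fat and mesothelial markers, given above, whose part in these values was not tested. In knockout library 4, Ddit3 was 12.3 CPM against 8.58 to 9.31 in the other knockout libraries.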

How the results depend on the processing

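None of the 10 members passed in any of the 21 alternatives, and Bak1, Bax, Bbc3, Bcl2l2 and Pmaip1 were below 0 in each that tested them; Pmaip1 was not tested under the filter of at least 1 CPM in 5 libraries. Signs of Bcl2, Bcl2l1, Mcl1, Bid and Bcl2l11, none of them called, turned in 2 to 6 alternatives. Scaling by library totals alone moved the median of all genes by -0.10, and under it Bcl2, Mcl1 and Bcl2l11 were below 0, at -0.06, -0.06 and -0.04. The number of tested genes called was 118 with DESeq2 and 59 by the main test, with 56 and 37 of them within 20 Mb of Bak1. It was 88 with voom and quality weights, 75 without wild-type library 1 and 47 without wild-type library 3. Within 20 Mb of Bak1 these 3 fits called 53, 47 and 30. Of the genes in the apoptosis lists, 1 was called (Pim1) with DESeq2, with voom and quality weights and with both libraries that stood apart left out, and 0 to 1 when each library was left out in turn. With the longest transcript as length, 4 of the 10 genes changed place in the order of levels. Low counts limit Pmaip1, Bid and Bbc3.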
